A study of Mus musculus with 32 samples.

Results

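Microexons, the shortest exons of a gene, were examined in P19 cells, a mouse embryonal carcinoma line, after knockdown of each of 7 SR proteins. A microexon was taken here as an internal exon of 3 to 27 bases that stood alone in the exon bins of the deposited tables, with intronic sequence on either side and neither the first nor the last block of its gene. The rule found 1614 microexons in 1177 genes among 354841 bins, and 145050 internal blocks of 28 bases or more served for comparison. It used annotation and not reads, and 101 of the microexons lay in entries that merged overlapping genes.

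PolyA+ RNA was sequenced from whole cells and from cytoplasm. In the knockdown groups, SRSF1, SRSF2, SRSF3, SRSF4, SRSF5, SRSF6 or SRSF7 was depleted for 36 hours with esiRNA, a pool of enzymatically prepared short interfering RNAs delivered with Lipofectamine 2000, and in the control group the esiRNA was directed against GFP. There were 8 groups with 2 fractions and replicates named A and B, which makes 32 libraries. The cells were grown in DMEM with serum and received no differentiating agent, all groups received transfection reagent and an esiRNA, and all came from this 1 line.

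SR proteins are splicing factors with an RNA-binding part and an arginine and serine rich tail. They bind within exons and help the spliceosome define them, and several of them also stay with mRNA on its way to the cytoplasm. A microexon has little room for such binding sites, and its splicing is known to lean on signals in the flanking introns. Many microexons are used mainly in neurons or muscle, where SRRM4 and RBFOX proteins favour them and PTBP1 represses them. Most of these keep the reading frame and change a few residues on the surface of a protein.

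Total bin reads ranged from 41417374 to 72741730 in the cytoplasmic libraries and from 38874542 to 59470730 in the whole-cell libraries. Microexons took 562 to 676 of every 1000000 reads in cytoplasm and 740 to 781 in whole cells, and 477 to 581 microexons had at least 1 read in a cytoplasmic library, against 668 to 767 in a whole-cell library. The targeted transcripts stood at 37.3 to 76.4% of control in cytoplasm and at 48.1 to 66.3% in whole cells, and only Srsf1 in whole cells passed the gene test (log2 change -0.93 ± 0.158 (SE), adjusted p = 0.0221, limma). All 12 embryonal carcinoma markers were detected in every group, with summed levels of 121000 to 207900 in cytoplasm and 66300 to 109700 in whole cells. The 14 neuron markers summed to 9860 to 14950 in cytoplasm and 8354 to 12980 in whole cells, and the 12 glia and fibroblast markers to 2697 to 4515 and to 3797 to 6276, in the scaled reads of the gene tables. None of the neuron markers was at 0, so some RNA of neuronal genes was present in all groups.

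The microexons whose usage changed are shown here because the results turn on them, except Atp2c1 E052, for which no transcript was matched. The microexon is in capitals and bases of the neighbouring exons, as joined in the mRNA, are in lower case, 5′ to 3′. The letters were read from GENCODE M1 transcripts of the mm9 build, matched by gene, exon length and exon spacing, and the positions given are those of the mm10 bins.
Supt5 E026: tggagaaagAAGAGATTGAAGcctccaata
Plekha5 E010: gaaaagAATTACCTTTAATTTCCGagtgga
Mapk8ip3+Eme2 E084: tttcagTGCGCGATGATTTTTTTGgaatgg
Fcho2 E015: gcagtatctAGACACAGTCCAgtgcagatg
Senp6 E014: agagCAATCAGGACCGAAAAGAAAGgaaa
Asun E024: aagCCCACATTCAGTGTCTTTGAACAGgaa
Fip1l1 E022: GTATTCCAATAACTGTACCACCTCCAG
Max E004: GAAGAGCAACCGAGGTTTCAATCTGCG
Rps24 E005: gctggcaaaaagTGA
All of them lay in the coding part of a transcript and had a length that is a multiple of 3. Rps24 E005 was the last exon of the only transcript that carried it and consisted of a stop codon, while the others were internal. Fip1l1 E022 and Max E004 are shown without neighbouring bases because of their length.

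Some microexons came in near copies in related genes, and these are shown because the same few bases recur at the same place of related proteins. Among 995 microexons with matched sequence on both sides, 116 of 40142 pairs of equal length in different genes shared at least 65% of the bases over the microexon and 12 bases on either side, and 17 pairs, with 28 microexons, had a mean of at least 5 reads in both.
Pcbp2 E003: aagGAAGTTGGCAGTATCATCGGAAAGaaa
Pcbp3 E023: aagGAAGTTGGAAGCATCATCGGGAAGaaa
Pcbp4 E003: aagGAAGTGGGCAGCATCATTGGGAAGaag
Asxl1 E006: gaaggaaatgagAAGtgggacatcccc
Asxl2 E007: gaaagaaatcagAAGtgggacttcccc
Hnrnpm+March2 E024: gaaagtcaaggGGATGTGCtgttgttgaat
Myef2 E025: gaaaatcaaggGGTTGTGGcgtggttgaat
Pitpna E012: ctgcagaaccgTTATTACAaatgagtacat
Pitpnb E005: ctgcagaacaaTTGTAACGaatgaatacat
The poly(C)-binding proteins Pcbp2 and Pcbp3 were the most alike, at 89.6% of the window, and Pcbp4 shared 83.3% with Pcbp3 and 81.2% with Pcbp2. The chromatin regulators Asxl1 and Asxl2 shared the 3-base exon AAG in windows that matched at 88.9%, and Hnrnpm, an hnRNP splicing factor, and its relative Myef2 matched at 84.4%. The phosphatidylinositol transfer proteins Pitpna and Pitpnb matched at 81.2%. The death-associated kinases Dapk1, Dapk2 and Dapk3 formed a further set, with windows that matched at 80.4 to 88.2%, and the remaining pairs were between 65.1 and 79.1%. Reads of such copies could be shared between genes, which the tables do not resolve, so their values carry that uncertainty.

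The lengths of the 1614 microexons peaked at multiples of 3. The most frequent were 27 bases (293 microexons), 24 bases (163) and 21 bases (148), and the median was 21 bases. A multiple of 3 was found in 995 microexons (61.6%), against 45.5% of the 12007 internal blocks of 28 to 60 bases and 40.0% of all internal blocks of 28 bases or more. The last base was G in 77.7% of the 995 with matched neighbours, and AAG was the commonest ending (20.8%), before CAG (17.3%) and GAG (9.95%). Of the 16 matched microexons of 3 bases, 9 were AAG. Neighbouring blocks were a median of 1054.5 bases upstream and 933 bases downstream, closer than for longer internal blocks (1375 and 1293 bases). A gap of under 30 bases was found beside 73 microexons, too short for a usual intron, and 194 microexons were first or last in every transcript that carried them. The 2 sets together held 254 microexons, of which 22 had a mean of at least 5 reads, and each count below was also taken without them.

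**Figure D1:**
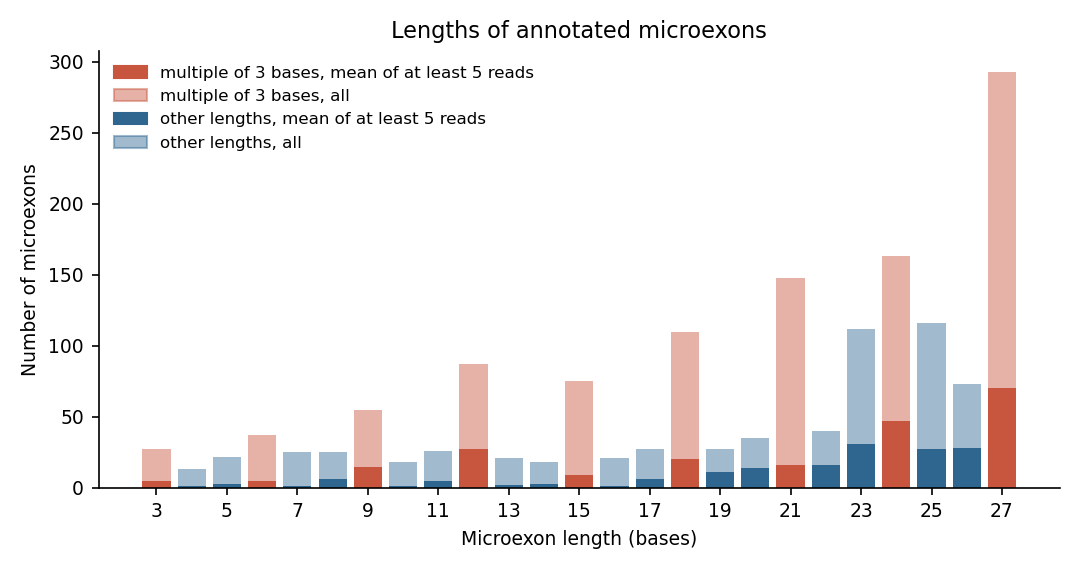
Number of annotated microexons at each length from 3 to 27 bases; pale bars count all microexons and full bars those with a mean of at least 5 reads over the 32 libraries, with multiples of 3 in orange and other lengths in blue. The highest bars are at 27 bases (293 microexons, 70 of them with a mean of at least 5 reads) and 24 bases (163 and 47).

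Most annotated microexons had few reads in P19 cells, counted over genes at any level and without a correction for length. No read fell on 426 of them (26.4%) in any of the 32 libraries, against 9.71% of longer internal blocks, and 370 (22.9%) had a mean of at least 5 reads, against 57.5%. A mean of at least 5 reads was reached by 214 of the 995 microexons with a multiple of 3 bases (21.5%) and by 156 of the 619 others (25.2%). Low reads were also found in well-covered genes. In genes with a mean of at least 1000 bin reads lay 529 microexons, and 268 of these had a mean of at least 5 reads. A mean below 1 read was found in 164 of them, 28.3% of those with a multiple of 3 bases and 35.1% of the others. Longer blocks of these genes were not counted in this way. The shortest were seen least, with 36 of the 204 microexons of 3 to 9 bases at a mean of at least 5 reads. How far alignment of reads across such short exons limited this was not tested.

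To ask how often a microexon was included, its reads were set against those of its neighbours. Reads were divided by the exon length plus the read length less 1, since a read counts in every bin it touches. The result was divided by the mean of the same value for the neighbours, each taken as the longest bin of the adjacent block. Relative coverage near 1 corresponds to an exon covered like its neighbours, and near 0 to one that is mostly absent. In control whole cells, 198 microexons had neighbours with a mean of at least 50 reads. Their median relative coverage was 0.648 (quartiles 0.0499 and 1.09), against 1.0 in 36001 longer internal blocks (0.766 and 1.27) and 0.992 in the 2543 of 28 to 60 bases (0.69 and 1.28). The distribution had a low and a high group. Below 0.1 were 60 microexons (30.3%) and above 0.8 were 84 (42.4%), against 2.96% and 71.7% of the longer blocks. The median was 0.661 and 0.619 in the replicate libraries, and without short gaps and terminal exons it was 0.701 (n = 182). These are descriptions over exons, which are not replicates.

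Among microexons that could be placed against their neighbours, relative coverage was lower for multiples of 3, unlike the share below 1 read in well-covered genes given above. Microexons with a multiple of 3 bases had a median of 0.318 (n = 117, 36.8% below 0.1), against 0.899 in the others (n = 81, 21% below 0.1). In blocks of 28 to 60 bases the medians were 0.946 (n = 1051) and 1.02 (n = 1492). By length, the median was 0.265 at 3 to 9 bases (n = 18), 0.115 at 10 to 15 (n = 23), 0.287 at 16 to 21 (n = 51) and 0.822 at 22 to 27 (n = 106). In cytoplasm, 118 microexons could be placed, with a median of 0.789, and again the multiples of 3 were lower (0.602, n = 63) than the others (0.885, n = 55). Knockdown libraries had medians of 0.74 to 0.832 in cytoplasm and 0.611 to 0.69 in whole cells, beside 0.774 and 0.814 and beside 0.661 and 0.619 in control libraries. The knockdown ranges enclose the control values in both fractions.

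**Figure D2:**
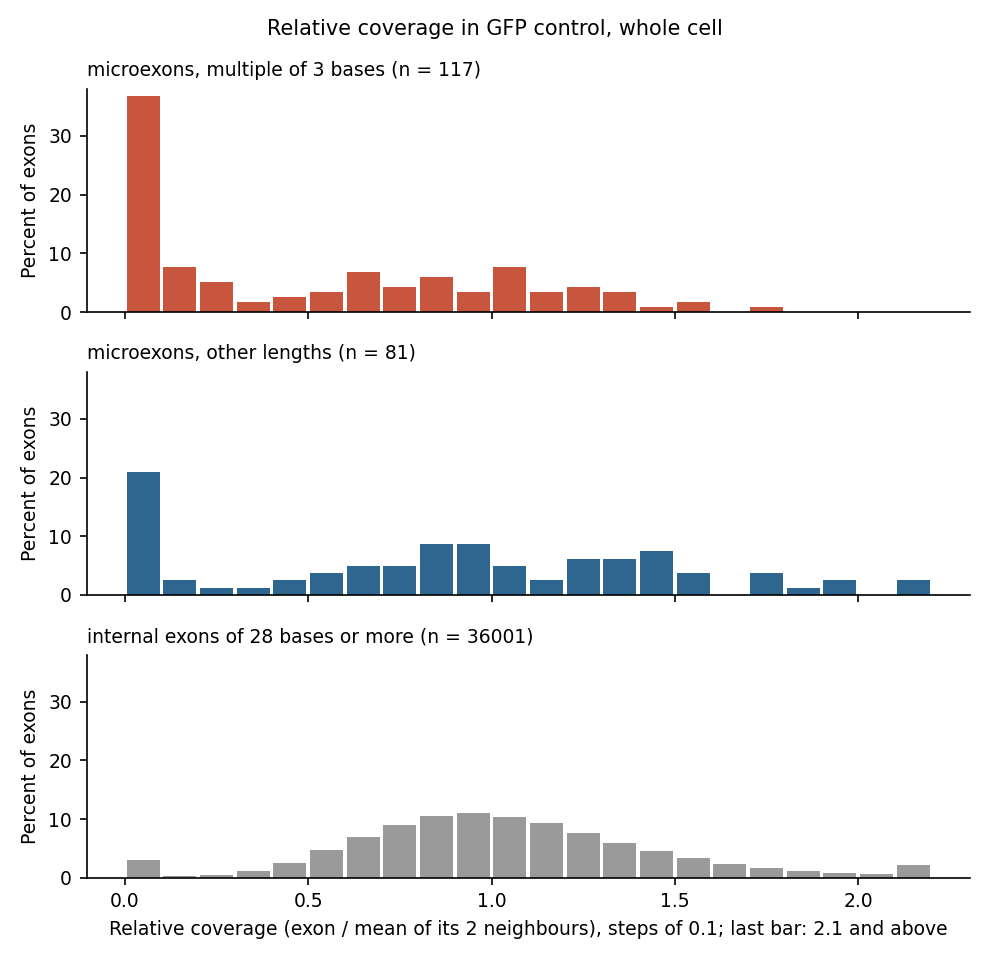
Percent of exons (vertical axis) by relative coverage in steps of 0.1 (horizontal axis, last bar 2.1 and above) in GFP control whole cells, for microexons with a multiple of 3 bases, other microexons and longer internal exons. The microexon panels have a peak near 0 that is tallest for multiples of 3 (36.8% below 0.1, against 21% in the others), while the longer exons have their main peak near 1.

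Microexons at the extremes had these counts. Hprt E005, 18 bases in the purine salvage gene, had 252 and 299 reads in control whole cells and relative coverage of 1.04 and 0.963, and Asxl1 E006, only 3 bases long, had 40 and 33 reads and 1.08 and 1.09. Pcbp2 E003 had 1384 and 1363 reads and 1.14 and 1.15. These were included like their neighbours in both libraries. Among the highest in relative coverage were Prpf40b E020 (2.11 and 2.18, 25 bases), Ube2b E005 (2.0 and 2.27, 26 bases), Trim27 E007 (1.99 and 2.0) and Bspry E007 (1.83 and 1.84), among them a splicing factor and a ubiquitin-conjugating enzyme. A value above 1 shows that the neighbours had fewer reads for their length. At the other end, 14 of the 198 microexons with neighbours at a mean of at least 50 reads had no read in either control whole-cell library. Nsun2 E009, 23 bases in an RNA methyltransferase gene, had 0 and 0 reads, while 1 neighbour had 264 and 284 reads and the other 371 and 416. Map7 E019, Cask E005, Ankrd17 E009 and Mia3 E027 were also at 0 in both. Nsun2 E009, Map7 E019 and Ankrd17 E009 were first or last exons in the transcripts that carry them. Hprt E005, Asxl1 E006 and Pcbp2 E003 were picked after their values were seen.

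The shortest well-covered microexons were of 3 to 8 bases. Pitpnb E005, 8 bases, had 194 and 226 reads in control whole cells, with relative coverage of 0.865 and 0.765, and its counterpart Pitpna E012 had 81 and 98 reads. Hnrnpm+March2 E024, 8 bases, had 808 and 1068 reads. Rps24 E005, 3 bases, had 166 and 162 reads, yet its relative coverage was only 0.0485 and 0.0339, as its neighbours in this abundant transcript had many more reads. Cfl1 E005, 6 bases in cofilin, had 1169 and 1251 reads and relative coverage of 0.851 and 0.813, but the gaps to its neighbours were 2 bases on either side, too short for introns.

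In genes known for neural or muscle microexons, most annotated microexons had few reads in these cells. The list of 75 such genes held 90 microexons in 53 genes, 80 of them a multiple of 3 bases. Of these, 42 had a mean below 1 read, 10 of them with no read at all, and 20 had a mean of at least 5. Their relative coverage in control whole cells had a median of 0.0652 (n = 21), with 13 below 0.1 and 2 above 0.8, against a median of 0.747 in other genes (n = 177). Microexons with a multiple of 3 bases had a median of 0.318 over all genes (n = 117). The list and the other genes were not matched for frame or length, so the part of these in the difference was not tested. Mef2d E013, 21 bases in a muscle and neuron transcription factor, had 4 and 0 reads between 1 neighbour with 178 and 226 reads and another with 193 and 212. Picalm E018, 24 bases in a clathrin adaptor, had 11 and 7 reads between 1 neighbour with 183 and 192 reads and another with 314 and 441. Eif4g1 E022, 21 bases in a translation initiation factor, had 3 and 4 reads and relative coverage of 0.0145 and 0.0202. These 3 were picked after their values were seen. The exons beside them were well covered in both libraries.

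Some of the tested microexons of this list with the most reads are shown here with their sequences.
Ptprs E015: gtacaagaaCAAACCTGACAGcaaacgcaa
Sptan1 E040: cagGAGGTGTATGGTGCGATGCCCAGGgat
Golga4 E019: cagtGTAACAATTTTGGAGCTACAGacac
Agrn E015: gaatctccgAAATCCCGCAAGgtcccgcac
Macf1 E041: gtctgctcagATCACAGAGtttcatgata
Dnm2 E030: cccaatcagGGGGAGATCTTGgtgatccgc
Ptprs E015, 12 bases in a receptor tyrosine phosphatase, had 74 and 90 reads in control cytoplasm, against 189 and 230 in control whole cells, where its relative coverage was 1.06 and 1.14. Sptan1 E040, 24 bases in alpha spectrin, had 11 and 21 reads in cytoplasm, against 133 and 161 in whole cells (relative coverage 1.51 and 1.68). Both were thus covered at least like their neighbours. Golga4 E019, 21 bases in a golgin, had 10 and 10 reads in cytoplasm, against 80 and 87 in whole cells (0.739 and 0.644). Agrn E015, 12 bases in agrin, the organiser of the neuromuscular synapse, had 8 and 9 reads, against 29 and 50 (0.414 and 0.618), and Macf1 E041, 9 bases in a cytoskeletal crosslinker, had 0 and 2 reads, against 16 and 38 (0.356 and 0.906). Agrn and Macf1 were therefore at intermediate coverage with a wide spread between replicates. Dnm2 E030, 12 bases in dynamin 2, had 82 and 120 reads in cytoplasm and 68 and 99 in whole cells. Robo1 E018, Vav2 E020, Ank2 E010 and Camta1 E009 had 12 to 42 reads in the control whole-cell libraries.

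Usage in each knockdown was then compared with control. Usage is given as microexon reads per 1000 reads of the other bins of its gene. The test (limma diffSplice) asked whether the log2 change of a bin differed from that of the other bins of its gene, over all bins with a mean of at least 5 in the 4 libraries, and a bin was called at an adjusted p below 0.1. It pools the spread between replicates over the bins of a gene, although bins are not replicates. The 7 comparisons of a fraction share its 2 control libraries, so a high or low control moves them all. Of the microexons, 450 were tested in at least 1 of the 14 comparisons and 257 in all 14. There were 11 calls in 4825 tests, for 10 microexons. Among the 90 microexons of the neural and muscle list, 30 were tested and none was called, by this limma fit or by edgeR. At an unadjusted p below 0.05 were 15 of their 245 tests, without a share of all bins taken over the same tests. Alternative limma fits did call Dnm2 E030 with SRSF3 in cytoplasm (replicate letter as a block, adjusted p = 0.0226). They also called Enah E015, untested in the main fit, with SRSF1 in whole cells (no filter on the mean, adjusted p = 0.0179).

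Calls were rare among microexons as among all bins, and 9 of the 11 were in whole cells. With SRSF1 in whole cells, 1 rose and 4 fell of 385 microexons tested (1.3%), against 0.322% of all bins. With SRSF2, 1 of 385 was called (0.112% of all bins), with SRSF3 2 of 383 (0.394%) and with SRSF7 1 of 405 (0.0725%). In cytoplasm, 1 of 294 was called with SRSF1 (0.183% of all bins) and 1 of 296 with SRSF3 (0.499%). These counts rest on 1 to 5 microexons each.

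In the remaining 8 comparisons no microexon was called, nor by edgeR on the recovered reads. In whole cells, 10 of 394 were at an unadjusted p below 0.05 with SRSF4 (5 in edgeR), 6 of 396 with SRSF5 (1 in edgeR) and 10 of 410 with SRSF6 (4 in edgeR). That is 2.54, 1.52 and 2.44% of the microexons, beside 1.61, 1.59 and 2.11% of all bins, of which 0, 0 and 0.00328% were called. In cytoplasm, 8 of 285 with SRSF2 (1 in edgeR), 5 of 292 with SRSF4 (2), 2 of 298 with SRSF5 (1), 7 of 300 with SRSF6 (4) and 6 of 302 with SRSF7 (5) were at an unadjusted p below 0.05. The background of all bins was 2.42% with 0.0139% called for SRSF2, 1.93% with 0.00207% for SRSF4, 1.75% with 0.00338% for SRSF5, 1.84% with 0.00666% for SRSF6 and 2.43% with 0.0518% for SRSF7. The microexon shares were 2.81, 1.71, 0.671, 2.33 and 1.99% in that order.

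**Figure D3:**
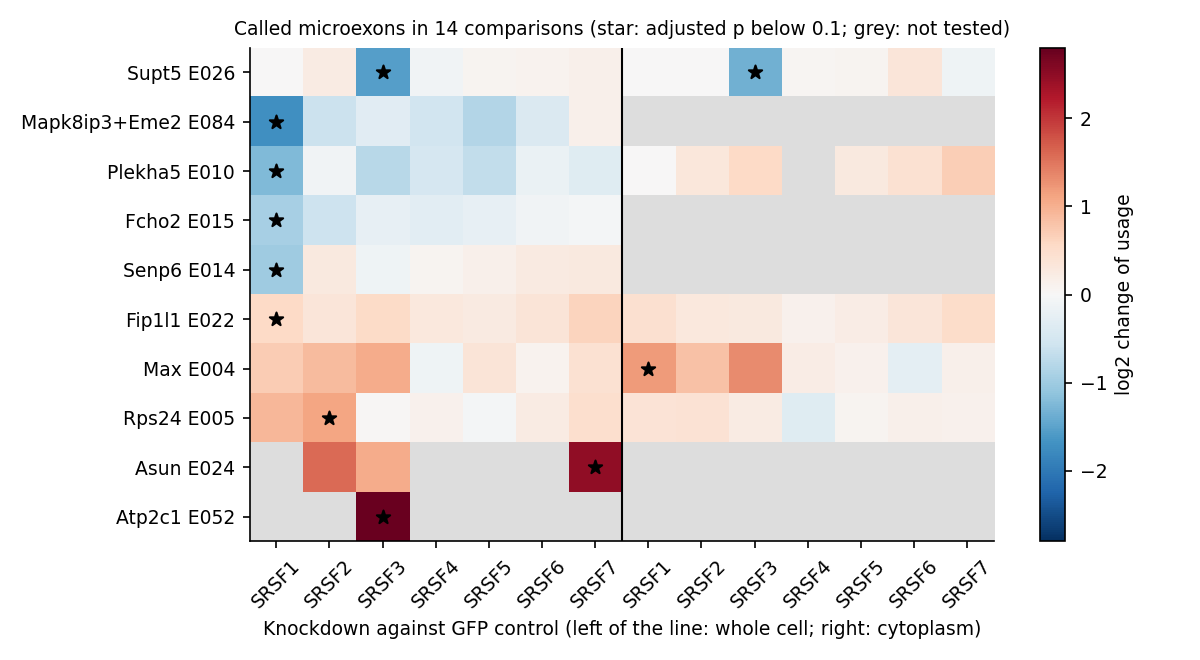
Log2 change of usage relative to the other bins of the gene (colour) for the 10 called microexons (rows) in the 14 comparisons of a knockdown with GFP control (columns; whole cell left of the line, cytoplasm right). Stars mark the 11 calls and grey cells were not tested; only Supt5 E026 has a star in both fractions, and the widest blue run is that of SRSF1 in whole cells.

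Supt5 E026 was used less after SRSF3 knockdown in both fractions. This exon of 12 bases (chr7:28330018-28330029, minus strand, mm10) belongs to the gene of SPT5, a subunit of the elongation factor DSIF that pauses and releases RNA polymerase II. In cytoplasm its usage was 2.24 and 2.98 in SRSF3 knockdown (30 and 60 reads), against 7.26 and 5.87 in control (88 and 84 reads). The 2 knockdown libraries lay below both controls and below all libraries of the other knockdowns (4.7 to 9.37). The log2 change was -1.34 ± 0.169 (SE; adjusted p = 3.57e-07), and the call stood without any 1 of the 4 libraries (adjusted p 2.99e-05 to 0.0266), while edgeR gave -1.3 with an adjusted p of 0.609. In whole cells usage was 2.41 and 3.43 in SRSF3 knockdown (33 and 49 reads), against 9.52 and 7.30 in control (110 and 86 reads). Here too the groups did not overlap, and the other knockdowns were at 6.12 to 10.7. The log2 change was -1.54 ± 0.289 (adjusted p = 0.00159, edgeR 0.000881), but without control replicate A it missed the threshold (-1.38, adjusted p = 0.407).

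Relative coverage showed the same exon against its neighbours. It was 0.209 and 0.321 in SRSF3 knockdown cytoplasm, against 0.685 and 0.631 in control cytoplasm, and 0.184 and 0.303 in SRSF3 knockdown whole cells, against 0.685 and 0.63 in control whole cells. The cytoplasmic change less the whole-cell change was 0.20 ± 0.358 on the log2 scale (SE; adjusted p = 1.0), a difference smaller than its error. None of the 29 other tested bins of Supt5 was called in either fraction. The level of the gene changed by 0.09 in cytoplasm (adjusted p = 0.866) and by 0.24 in whole cells (adjusted p = 0.311). The exon itself, AAGAGATTGAAG, consists mostly of purines.

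Atp2c1 E052, 12 bases (chr9:105493543-105493554, minus strand), was the other call with SRSF3. It lies in the gene of a Golgi calcium and manganese pump and was barely seen, with 6 and 20 reads in SRSF3 knockdown whole cells, against 0 and 1 in control whole cells. Usage was 1.09 and 3.19, against 0.0 and 0.194, and the other whole-cell knockdown libraries reached at most 1.08. The fitted log2 change was 2.77 ± 0.723 (adjusted p = 0.0673, edgeR 0.0166), a value that depends on the pseudocount (3.42, adjusted p = 0.126, at 0.5). The call was lost without control replicate A (adjusted p = 1.0) and without control replicate B (0.401).

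**Figure D4:**
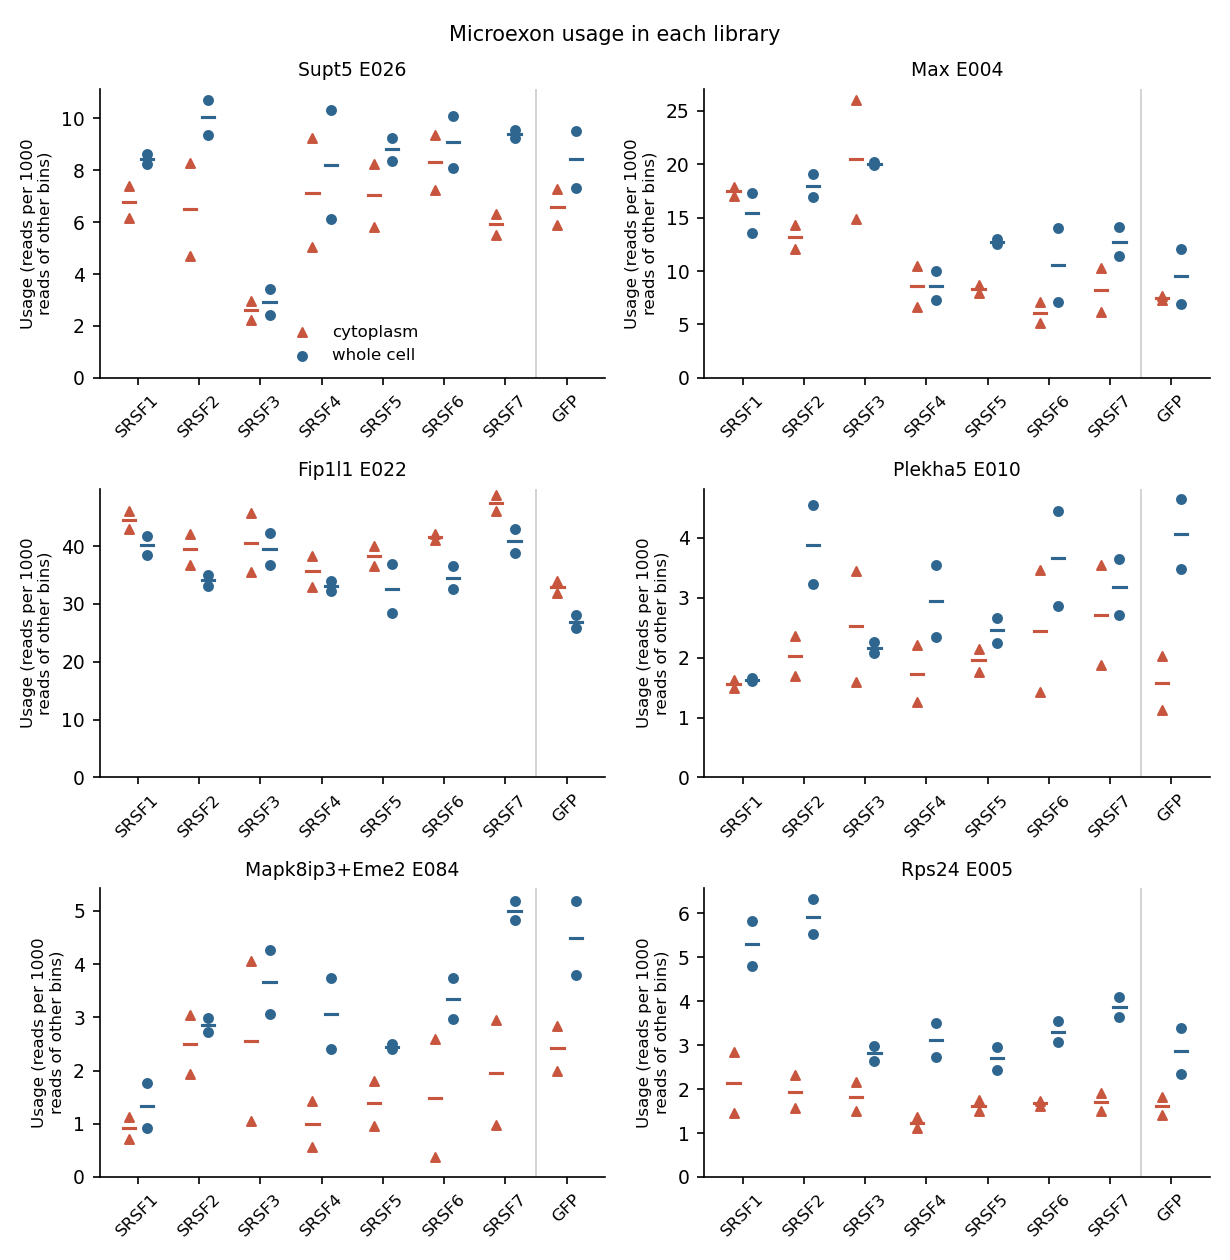
Usage (reads per 1000 reads of the gene's other bins) of 6 called microexons in every library, with triangles for cytoplasm, circles for whole cell, bars at the mean of 2 replicates, and the knockdowns left of the GFP control. Supt5 E026 is low with SRSF3 only (2.24 to 3.43), Max E004 is high with SRSF1, SRSF2 and SRSF3, and Plekha5 E010 is lowest in whole cells with SRSF1 (1.61 and 1.66).

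With SRSF1 in whole cells, 4 microexons fell and 1 rose. Mapk8ip3+Eme2 E084, 18 bases (chr17:24908411-24908428, minus strand), lies in a transcript of Mapk8ip3, a scaffold that links JNK kinases to motor proteins. Its usage was 0.912 and 1.76 in SRSF1 knockdown (6 and 12 reads), against 3.79 and 5.19 in control (14 and 22 reads). The groups did not overlap and the change was -1.72 ± 0.401 (adjusted p = 0.0179), while the gene itself rose (0.84 ± 0.126, adjusted p = 0.0135). It missed the threshold in edgeR (0.101), in the fit of all 16 libraries (0.188), without control replicate B (0.822) and without knockdown replicate A (0.891). Among the 71 other bins tested in this merged entry, 1 fell, and the microexon ranked 2 by p. In cytoplasm, where it was not tested, usage was 0.711 and 1.12 in SRSF1 knockdown, against 2.0 and 2.84 in control, from 3 and 5 reads in either group.

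Plekha5 E010, 18 bases (chr6:140537006-140537023, plus strand) in a gene for a PH-domain protein, was at 1.61 and 1.66 in SRSF1 knockdown whole cells (11 and 11 reads), against 3.48 and 4.65 in control whole cells (23 and 32 reads). The change was -1.24 ± 0.281 (adjusted p = 0.0222). Its relative coverage was 0.0729 and 0.0673, against 0.143 and 0.197, so most Plekha5 mRNA lacked it in either group. The call was lost in edgeR (0.436), in the fit of all 16 libraries (0.572), without the filter (0.114) and without control replicate A (0.144), control replicate B (1.0) or knockdown replicate A (0.328). Cytoplasmic usage overlapped between the groups, at 1.62 and 1.49 in SRSF1 knockdown and 2.03 and 1.13 in control.

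Fcho2 E015, 12 bases (chr13:98752334-98752345, minus strand) in the gene of a membrane-bending protein of clathrin pits, was at 8.49 and 9.68 in SRSF1 knockdown whole cells (29 and 33 reads), against 21 and 14.7 in control whole cells (48 and 42 reads). The change was -0.93 ± 0.238 (adjusted p = 0.0798). Senp6 E014, 21 bases (chr9:80098886-80098906, plus strand) in the gene of a SUMO protease, was at 3.41 and 5.27 (21 and 35 reads), against 9.1 and 8.03 (65 and 70 reads), a change of -0.99 ± 0.263 (adjusted p = 0.0988). Both sat close to the threshold of 0.1. Of the 39 other tested bins of Senp6, 1 rose, and the microexon ranked 2 by p in its gene. Fcho2 missed it in edgeR (0.533), in the fit of all 16 libraries (0.99) and without control replicate A (0.651), knockdown replicate A (1.0) or knockdown replicate B (0.667). Senp6 missed it in edgeR (0.351), with a pseudocount of 0.5 (0.101) and without control replicate A (0.481), control replicate B (0.239), knockdown replicate A (1.0) or knockdown replicate B (0.234).

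Fip1l1 E022, 27 bases (chr5:74585046-74585072, plus strand), rose with SRSF1. Fip1l1 encodes a subunit of the cleavage and polyadenylation machinery. Usage was 41.8 and 38.5 in SRSF1 knockdown whole cells (343 and 323 reads), against 25.9 and 28 in control whole cells (191 and 250 reads), a change of 0.56 ± 0.139 (adjusted p = 0.0556). The groups did not overlap, but edgeR gave an adjusted p of 0.718, and the call was lost without control replicate A (0.455), control replicate B (0.159), knockdown replicate A (1.0) or knockdown replicate B (0.484). The other whole-cell knockdowns, which share these controls, were at 43.0 and 38.8 with SRSF7 (0.62, adjusted p = 0.136), 36.8 and 42.3 with SRSF3 (0.53, adjusted p = 0.288) and 32.5 and 36.5 with SRSF6 (0.36, adjusted p = 1.0). They were at 35.0 and 33.1 with SRSF2, 32.2 and 34.0 with SRSF4 and 28.4 and 36.9 with SRSF5, none of them called. In cytoplasm the knockdown libraries lay between 33.0 and 48.8, beside 31.9 and 33.9 in control. All whole-cell knockdown libraries were thus above both controls, in comparisons that are not independent of each other.

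Max E004 was the call of SRSF1 in cytoplasm. Max is the partner through which Myc binds DNA, and this exon of 27 bases (chr12:76961263-76961289, minus strand) distinguishes its long from its short form. Usage was 17.9 and 17.0 in SRSF1 knockdown cytoplasm (81 and 67 reads), against 7.27 and 7.71 in control cytoplasm (24 and 28 reads), a change of 1.19 ± 0.221 (adjusted p = 0.0604). Relative coverage was 0.5 and 0.475, against 0.206 and 0.212. The replicates lay close together and far from the other group, yet the call was lost in edgeR (1.0), in the fit of all 16 libraries (1.0), without the filter (0.137) and without control replicate A (1.0), control replicate B (1.0), knockdown replicate A (0.633) or knockdown replicate B (0.178).

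Max E004 was also high with SRSF2 and SRSF3, without passing the test. Cytoplasmic usage was 26 and 14.9 with SRSF3 (1.32, adjusted p = 0.672) and 12.1 and 14.3 with SRSF2 (0.83, adjusted p = 1.0), beside the same controls at 7.27 and 7.71. In whole cells it was 20.2 and 19.9 with SRSF3 (1.03, adjusted p = 0.253), 16.9 and 19.1 with SRSF2 (0.89, adjusted p = 0.507) and 17.3 and 13.6 with SRSF1, beside 12.1 and 6.93 in control. All of these libraries were above the controls of their fraction. In the fit of all 16 whole-cell libraries, the SRSF3 change passed (adjusted p = 0.00743).

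Rps24 E005, 3 bases (chr14:24495430-24495432, plus strand) in a ribosomal protein gene, rose with SRSF2 in whole cells. Usage was 6.32 and 5.53 in SRSF2 knockdown (266 and 241 reads), against 3.4 and 2.34 in control (166 and 162 reads), a change of 1.10 ± 0.205 (adjusted p = 0.0382, edgeR 0.0275). With SRSF1 it was 5.82 and 4.8 (0.93, adjusted p = 0.126, edgeR 0.0779), above the same controls. In cytoplasm all knockdown libraries were at 1.11 to 2.85, a range that encloses the controls at 1.83 and 1.4. The SRSF2 call was lost without control replicate B (0.703), knockdown replicate A (1.0) or knockdown replicate B (0.407). Being a last exon in its transcript, it is no call once terminal exons and short gaps are left out.

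Asun E024, 24 bases (chr6:146561594-146561617, minus strand), rose with SRSF7 in whole cells. Asun encodes a subunit of the Integrator complex, which trims small nuclear RNAs. Usage was 2.01 and 3.48 in SRSF7 knockdown (12 and 27 reads), against 0.163 and 0.685 in control (1 and 5 reads), a change of 2.48 ± 0.56 (adjusted p = 0.0607, edgeR 0.0513). The other whole-cell knockdown libraries were at 0.158 to 1.53, below both SRSF7 libraries. Relative coverage was 0.0727 and 0.113, against 0.00574 and 0.0252, so the exon remained rare. In cytoplasm there was 1 read over all 16 libraries. The call was lost in the fit of all 16 libraries (0.102) and without control replicate A (0.747), control replicate B (0.172), knockdown replicate A (0.497) or knockdown replicate B (0.844).

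Other microexons were not called in a comparison by the main test. Those with the smallest unadjusted p and no overlap between the groups give the scale of what was left. With SRSF4 in whole cells, Desi1 E011 was at 12.1 and 11.3, against 7.4 and 4.91 in control (0.86 ± 0.306, adjusted p = 1.0). With SRSF5, Plekha5 E010 was at 2.66 and 2.25, against 3.48 and 4.65 (-0.68 ± 0.227, adjusted p = 1.0), the controls it shares with the SRSF1 call. Also with SRSF5, Pcbp3 E023 was at 25.3 and 24.1, against 33.8 and 30.2 (-0.36 ± 0.157, adjusted p = 1.0), and with SRSF6, Csnk1g3 E012 was at 2.78 and 2.83, against 0.829 and 1.04 (1.3 ± 0.423, adjusted p = 1.0). The kinesin Kif21a E016 stood above control, at 0.391 and 1.31, with SRSF2 (1.61 and 3.63), SRSF5 (2.03 and 1.91) and SRSF6 (2.03 and 1.83). These comparisons have the same controls and adjusted p of 0.695 to 1.0. Its whole-cell reads were 2 and 7 in control, 13 and 13 with SRSF1 and 10 and 7 with SRSF4. They were 8 and 13 with SRSF7 and 1 and 4 with SRSF3. Whether the shared controls were low was not tested.

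In cytoplasm, the largest such difference by test with SRSF7 was Vps29 E009, 12 bases in a retromer subunit gene, at 2.63 and 2.53, against 5.68 and 5.93 in control (-1.06 ± 0.283, adjusted p = 0.502). With SRSF3, Dnm2 E030 was at 10.0 and 11.8, against 16.2 and 17.8 (-0.67 ± 0.221, adjusted p = 0.326). Also with SRSF3, Tnrc6c E005, in a gene of microRNA silencing, was at 12.7 and 16.6, against 7.05 and 6.93 (1.17 ± 0.44, adjusted p = 0.592). Both were called in the limma fit with the replicate letter as a block (adjusted p = 0.0226 and 0.0299). With SRSF2, Rbbp5 E002 was at 1.76 and 5.27, against 8.53 and 5.7. With SRSF4, the saposin precursor Psap E012 was at 0.236 and 0.689, against 2.39 and 1.67, with SRSF5 Vav2 E020 at 6.5 and 9.16, against 4.69 and 4.56, and with SRSF6 Vsig10 E015 at 3.6 and 17.9, against 39.3 and 34.1, from 1 and 6 reads, against 7 and 9. Also with SRSF6, Dapk1 E008 was at 6.31 and 6.51, against 8.23 and 11.8. The adjusted p of these last 5 was 1.0.

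Whether a knockdown acted differently in cytoplasm than in whole cells was asked in 8 libraries at a time, as the cytoplasmic change less the whole-cell change. None of 2573 tests of microexons over the 7 knockdowns was called, with 0.0014% of all bins called, and the smallest adjusted p was 1.0. At an unadjusted p below 0.05 were 47 of the 2573 tests of microexons, beside 21561 of 1218442 tests of all bins (1.77%). The edgeR test was not run on this difference. For Asun E024 with SRSF7 the difference was -2.06 (adjusted p = 1.0).

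Control cytoplasm and control whole cells differed at more microexons than any knockdown and its control. In cytoplasm, 5 were higher and 12 lower among 363 tested (4.68%, and 18 called by edgeR), against 13.4% of all bins. Of these calls, Gm21887 E002, Rps14 E006 and Rps24 E005 were each first or last in the only transcript that carries them. Those named here were called in this comparison and chosen after their values were seen. The lowest was Sra1+Apbb3 E024, 6 bases in merged genes, with 0 and 2 reads in cytoplasm, against 9 and 17 in whole cells (-3.35 ± 0.508, adjusted p = 1.07e-06). Gm21887 E002 had 10 and 4 reads in cytoplasm, against 151 and 276 in whole cells (-3.17 ± 0.571, adjusted p = 0.000193). These 2 were called in each fit with 1 library left out that could be made.

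Other calls depended on single libraries or on the tool. Lphn1 E011, 15 bases in the latrophilin adhesion receptor, had 0 and 2 reads in cytoplasm, against 22 and 27 in whole cells (-2.78 ± 0.607, adjusted p = 0.000457), and was no call without cytoplasm control replicate A (0.361). Camta1 E009, 21 bases in a calmodulin-binding transcription factor, was at 1.37 and 1.67 in cytoplasm, against 11.6 and 8.84 in whole cells (-1.75 ± 0.616, adjusted p = 0.056), and was lost when either control of either fraction was left out (0.137 to 0.391). Hnrnpm+March2 E024 was at 32.2 and 18.9, against 48.0 and 52.3 (-1.2 ± 0.414, adjusted p = 0.0469). It was lost in edgeR (0.197) and without whole-cell control replicate A (0.428) or B (0.452). Anapc4 E007, in a subunit of the anaphase-promoting complex, was at 26.4 and 31, against 41.1 and 50.9 (-0.63 ± 0.183, adjusted p = 0.0126, edgeR 0.105), and was lost without cytoplasm control replicate A (0.214) or whole-cell control replicate B (0.27). Among those higher in cytoplasm, Anxa6 E006, 18 bases in annexin A6, was at 15.8 and 15.1, against 9.18 and 11.0 (0.62 ± 0.151, adjusted p = 0.0022). It was lost in edgeR (0.146) and without whole-cell control replicate A (0.171).

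**Figure D5:**
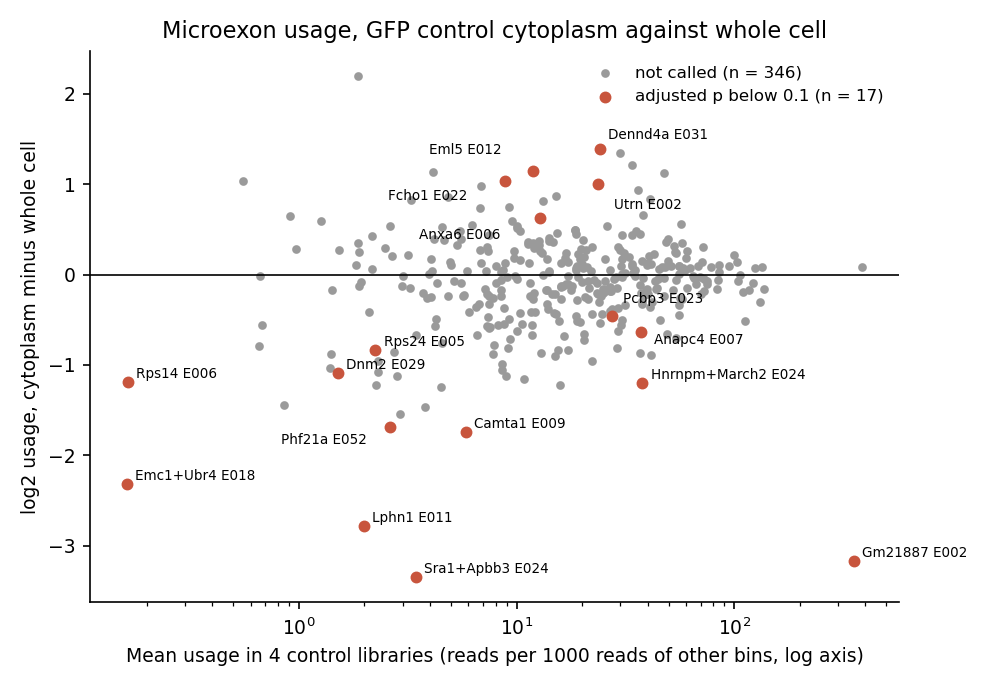
Log2 usage in cytoplasm minus whole cell (vertical axis) against mean usage in the 4 control libraries (horizontal, log axis) for the 363 tested microexons, with the 17 called in red and named. Of the called points, 12 lie below 0 and 5 above, and most microexons lie within 1 log2 unit of 0.

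The factors that act on microexons were read in the gene tables. Of 37 such regulators, all were tested in whole cells and 36 in cytoplasm. Summed over the 7 knockdowns, none rose and 4 fell in whole cells, against 1.77% of all gene tests called. None was called in cytoplasm, where 0.087% of all gene tests were called. There, 13 tests of regulators were at an unadjusted p below 0.05. The share of all genes at that threshold was not taken, so nothing is read from this count. A fit with the replicate letter as a block made more calls, 34 in whole cells and 17 in cytoplasm, in both directions. These count each gene in each knockdown, and the share of all genes called in that fit was not taken. Without the block, all 4 fell with SRSF3, a knockdown that changed 11.5% of all genes in whole cells. Ptbp2, the neuronal relative of PTBP1, was at 1823 and 1688 scaled reads in SRSF3 knockdown, against 3003 and 2906 in control (-0.76 ± 0.179, adjusted p = 0.0209). Rbfox2 (-0.44 ± 0.102, adjusted p = 0.0201), Rbfox3 (-0.72 ± 0.208, adjusted p = 0.0446) and Srrm3 (-0.69 ± 0.206, adjusted p = 0.0492), activators of microexons in neurons, were the others. Srrm4, the main activator in neurons, was low throughout, with 42.57 and 30.3 scaled reads in control whole cells, and in SRSF3 knockdown whole cells its change was -0.34 ± 0.354 (adjusted p = 0.569).

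Among 14 neuron markers, 5 also fell with SRSF3 in whole cells, Map2, Rbfox3, Stmn2, Syt1 and Gap43, of which Rbfox3 is in both lists, and their summed level was 8360 and 8354 in SRSF3 knockdown, against 10870 and 9536 in control, with none of the 14 at 0. The other marker lists were lower too. The 12 glia and fibroblast markers summed to 3797 and 4206 in SRSF3 knockdown whole cells, against 6260 and 5728 in control whole cells, and 2 of the 11 tested fell. The 12 embryonal carcinoma markers summed to 73600 and 66300, against 83730 and 78780, and 1 rose and 1 fell. In such bulk RNA, fewer cells of a type and less RNA per cell cannot be told apart, and the part of these marker levels in the microexon values with SRSF3 was not tested. Among 73 tested genes of the neural and muscle microexon list, 3 rose and 3 fell with SRSF3. Cpeb4, a translation regulator, rose most (1.60, adjusted p = 0.00208), and the kinesin Kif21a fell (-0.65). With SRSF1, Eif4g3 alone was called (0.66 ± 0.105, adjusted p = 0.0158), where 0.825% of all genes were. These are levels of whole genes, and none of their microexons was called in the main fit.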

How the data were processed

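The authors extracted polyA+ RNA from whole cells and cytoplasm, sequenced it and, per the labels and submitters' processing notes, processed it with Cufflinks 2.1.1, Bowtie2 2.1.0, TopHat2 (2.0.9 and 2.0.10), CASAVA 1.8.2 and cutadapt on the builds mm10 and mm9. The deposited exon tables hold a signal per library and bin, namely reads divided by 1 factor per library, in mm10 coordinates. Every value was a whole multiple of its column's step within 0.01, so whole reads were recovered for all bins. The deposited gene tables hold a scaled signal per gene. The release of the annotation was not given in the sources used here. Single-end reads were of 85 or 75 bases per the study's methods, which do not tie a length to a library, and 75 was used in relative coverage. The authors' own comparison columns hold fold changes and p-values and were not used, nor were tables of pooled FPKM.

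Bins with a mean of at least 5 in the 4 libraries of a comparison were tested as log2(value + 1) with limma 3.58.1 (vooma weights, diffSplice) in R 4.3.3, so that fold changes of low bins are understated. p-values were adjusted by the Benjamini-Hochberg method over all bins, and calls were made below 0.1. edgeR 4.0.16 (diffSpliceDGE) on the recovered reads was the alternative. Genes were tested by limma with a trend over 16 libraries of a fraction, called below 0.05. The scripts were tested on simulated data. Other alternatives were a pseudocount of 0.5, no filter, a mean of at least 20, a fit of all 16 libraries, the replicate letter as a block and leaving out each library. The study's methods call the replicates biological, and there were 2 per group. The exon test pools the spread between them over the tested bins of a gene. Bins are not replicates, so its p-values can be smaller than 2 libraries per group alone would give.

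Named microexons were the called ones, the 3 with the smallest p per comparison whose groups do not overlap, the 10 most abundant tested ones of the neural and muscle list, the 5 highest and 5 lowest by relative coverage and the 5 most abundant of 3 to 9 bases. A microexon that this rule selects is not reported here. The members and gene lists were chosen with earlier results of these data known. Without strand in the counts, overlapping genes cannot be told apart.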

Additional observations from a re-analysis of the deposited data

How the results depend on the processing

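No call changed direction under any alternative. With SRSF1 in whole cells, 2 microexons were called with a mean of at least 20, 1 in edgeR and 3 in the fit of all 16 libraries. The edgeR call was Rps24 E005 (adjusted p = 0.0779), which the main fit did not call, and no main call passed edgeR. Rps24 E005 was also among the 3 of the fit of all 16 libraries (adjusted p = 0.015, limma), with Fip1l1 E022 (0.0845) and Senp6 E014 (0.0879). With SRSF2 in whole cells, none was called without terminal microexons and short gaps, an alternative chosen after seeing the data. With SRSF3 in whole cells, 1 was called with a pseudocount of 0.5 and 1 with a mean of at least 20. With SRSF1 in cytoplasm, 0 were called without the filter, in edgeR or in the fit of all 16 libraries, and with SRSF3 in cytoplasm 0 in edgeR. In the control fractions, 80 were called without the filter, a count given without the share of all bins in that fit, so nothing is read from it. Without a filter on the genes, there were 2 calls of regulators in whole cells, counted per gene and knockdown. Median relative coverage was 0.618 with reads of 85 bases and 0.598 with neighbours of at least 20 reads in whole cells, and in cytoplasm 0.685 with neighbours of at least 20 reads and 0.721 with another choice of neighbouring blocks.

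Replicate letters were not taken to pair the libraries, since no source ties a letter to a batch and not every pair of groups had a correlation of deviations above 0.1. Most pairs did, 18 of 28 in cytoplasm (median 0.16) and 19 of 28 in whole cells (median 0.11), so letters may be shared in part. With the letter as a replicate block, calls were 1 with SRSF3 and 2 with SRSF7 in whole cells. In cytoplasm they were 2 with SRSF1 and 3 with SRSF3. Regulator calls, counted per gene and knockdown, were 34 in whole cells and 17 in cytoplasm. The share of all genes called in that fit was not taken. Fcho2 E015 with SRSF1 (adjusted p = 0.162) and Atp2c1 E052 with SRSF3 (0.172) were no calls with the block. Over all bins, the block called 1419 instead of 272 with SRSF1 and 2754 instead of 758 with SRSF3 in cytoplasm.

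Leaving out 1 library gave 0 to 3 calls with SRSF1, 0 to 1 with SRSF2, 0 to 2 with SRSF3 and 0 to 1 with SRSF7 in whole cells, and 0 with SRSF1, 0 to 5 with SRSF2 (5 without knockdown replicate B) and 1 to 3 with SRSF3 in cytoplasm. It gave 8 to 12 in the control fractions, and 0 to 7 calls of regulators in whole cells and 0 in cytoplasm. The causes were not tested. In cytoplasm without SRSF2 knockdown replicate B, calls rose over all bins as well. The microexon calls of that fit were therefore not particular to microexons. A lone library was assumed to vary like the other group. Several calls rest on fewer than 30 reads per library.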
